A study of Rattus norvegicus with 65 samples.

Results

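The leptin receptor and the genes through which it signals were followed in the hypothalamus of 65 male Wistar rats after bypass surgery, food restriction or gut hormone treatment. The 7 genes were picked by name from the 38513 gene rows of the count table and all 7 were found once: Lepr (the leptin receptor), Jak2 (the kinase bound to it), Sh2b1 (an adapter that keeps Jak2 active), Stat3 (the transcription factor the receptor recruits), Socs3 (the feedback inhibitor that Stat3 induces), and Ptpn1 and Ptpn2 (tyrosine phosphatases that switch the signal off).

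Each library was the whole hypothalamus of 1 animal. It was collected after 10 h of fasting in all groups. In all groups but lean, for which no intervention is given, this was 4 weeks after the intervention. The rats were 9 to 10 weeks old at the start, lean animals included. Except for the animals labelled lean, they had been made obese on a high-fat diet that started at that age. Roux-en-Y gastric bypass (RYGB) was performed in 14 animals and a sham operation in 11, and 7 further sham-operated animals were food-restricted so that their body weight matched the RYGB group (BWM). Saline was given to 8 animals, liraglutide (a GLP-1 receptor agonist, 0.4 mg/kg/day) to 5, PYY3-36 (a gut peptide, 0.1 mg/kg/day by osmotic minipump) to 4 and both drugs to 10. The remaining 6 animals carried the label lean. BWM animals had no free choice between high-fat and low-fat diet, so food restriction and diet choice cannot be told apart in that group. The animals were studied in 2 experimental periods. Batch A held 37 animals (11 RYGB, 5 sham, 7 BWM, 6 lean, 3 saline, 5 PYY3-36 + liraglutide) and batch B held 28 (3 RYGB, 6 sham, 5 saline, 5 liraglutide, 4 PYY3-36, 5 PYY3-36 + liraglutide). No BWM or lean animal came from batch B, and none treated with PYY3-36 alone or liraglutide alone from batch A.

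Leptin is released by adipose tissue and reports the size of the fat store to the brain. In the arcuate nucleus and other hypothalamic nuclei it binds Lepr, which has no kinase of its own and relies on Jak2. The long receptor form recruits Stat3, while shorter forms are abundant in the meninges, the choroid plexus and brain vessels, where the receptor takes part in leptin uptake. Whole tissue was sequenced, so more cells of a type and more RNA per cell cannot be told apart. The deposited table has 1 row for the receptor gene and does not separate its forms.

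Lepr lies at chr5:120503475-120682281 on the plus strand of Rnor_6.0, with 3650 bases of exon in the annotation used for counting. Its first 7537 bases overlap Leprot, the gene of the leptin receptor overlapping transcript, on the same strand. The counting split a read that fell on several genes or mapped to several places. The Lepr count was not a whole number in 26 of 65 libraries, against 3 or fewer for each other gene of the set. These 2 sources of fractions were not separated. The annotated starts of the 2 genes are 4565 bases apart in the current RefSeq assembly, GRCr8. The 250 bases before each start are shown to mark the 2 starts of the shared locus. They differ in composition and play no part in the counting, which used exons. CG dinucleotides are in capitals. The Lepr window is chr5:121409485-121409734 and the Leprot window chr5:121404920-121405169, both on the plus strand of GRCr8 and read 5′ to 3′.

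Lepr: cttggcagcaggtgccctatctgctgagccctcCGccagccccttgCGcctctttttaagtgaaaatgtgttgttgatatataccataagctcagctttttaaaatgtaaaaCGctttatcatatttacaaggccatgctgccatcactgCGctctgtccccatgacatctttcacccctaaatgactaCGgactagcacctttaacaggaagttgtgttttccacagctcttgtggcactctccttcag

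Leprot: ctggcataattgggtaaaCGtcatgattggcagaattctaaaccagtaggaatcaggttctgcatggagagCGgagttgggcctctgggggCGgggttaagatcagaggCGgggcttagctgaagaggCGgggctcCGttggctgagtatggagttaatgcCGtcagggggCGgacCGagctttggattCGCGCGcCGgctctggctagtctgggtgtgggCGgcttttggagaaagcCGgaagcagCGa

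The Lepr window held 5 CG dinucleotides and 46.4% G or C, and the Leprot window 16 and 58.4%. The Lepr window ends in ag, the letters that end an intron, directly before the annotated start, and that start lies inside Leprot. The Lepr window may therefore be intronic rather than a promoter, and its CG content is not set against that of promoters. The motif TTCNNNGAA, the palindromic core bound by STAT proteins, was searched on both strands in windows of 300 bases that also hold the first 50 bases after the start. It was found in none of the windows of the 7 genes and in 8.87% of all 33469 RefSeq windows, and no match says only that these letters are not in those windows.

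Counts on genes ran from 20041010 to 36539941 per library, with a median of 29571658 in batch A and 23386048 in batch B. Levels below are CPM, that is counts scaled to a common library total with TMM factors, and differences are log2 fold changes ± SE from edgeR's quasi-likelihood test with Benjamini-Hochberg adjustment over 21882 genes. A gene was called at an adjusted p under 0.05, and all 7 genes passed the filter on low counts. Defining neuronal markers of the hypothalamus varied widely. The lowest animal had 0.132 CPM of Agrp, 1.65 of Pomc, 0.552 of Avp, 0.0549 of Oxt and 1.42 of Pmch, against 19.2, 2343, 2628, 2981 and 6175 in the highest, and Hcrt was at 0 in 2 animals. Transcripts of neighbouring tissue also differed. Col3a1, a fibrillar collagen of the meninges, ran from 2.71 to 620 CPM, and Gh1, the growth hormone gene of the pituitary, from 0 to 62708 CPM, with the highest values in 1 BWM animal (replicate 5).

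Per kilobase of exon, the receptor had the lowest median of the 7 genes, next to Socs3. Over all 65 animals the median was 13.8 CPM per kb for Stat3 and 12.7 for Sh2b1, followed by 8.38 for Jak2, 7.42 for Ptpn1, 2.96 for Ptpn2, 1.19 for Socs3 and 1.15 for Lepr. The neighbours Stat3 and Sh2b1, Jak2 and Ptpn1, and Socs3 and Lepr overlapped widely between animals. Lepr varied most, with a coefficient of variation of 87.8% and a range from 0.881 to 33.6 CPM. Socs3 came next with 61.5%. Sh2b1 varied least with 11.3%, and the other 4 genes lay between 19.8% and 34.2%. The depth behind these levels also differed: the median raw count was 124 for Lepr (lowest 17) and 72 for Socs3 (lowest 22), but 2249 for Sh2b1 and 1742 for Stat3.

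Lepr was lowest in the sham group by mean and by median. Means ± SD in CPM were 10.2 ± 10.8 in BWM (n = 7), 8.23 ± 6.51 in RYGB (n = 14) and 7.51 ± 3.07 in PYY3-36-treated animals (n = 4). They were 6.88 ± 2.46 in lean (n = 6), 5.77 ± 4.88 in PYY3-36 + liraglutide (n = 10), 5.50 ± 2.61 in saline (n = 8), 5.47 ± 4.58 in liraglutide (n = 5) and 2.49 ± 1.20 in sham (n = 11). Neighbours in this order lay within their SD, apart from sham. The gap between sham and liraglutide was larger than the sham SD of 1.20 and smaller than the liraglutide SD of 4.58. By median the order was PYY3-36 (8.52), lean (8.04), RYGB (6.17), BWM (4.92), saline (4.58), PYY3-36 + liraglutide (3.80), liraglutide (3.32) and sham (2.23).

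**Figure D1:**
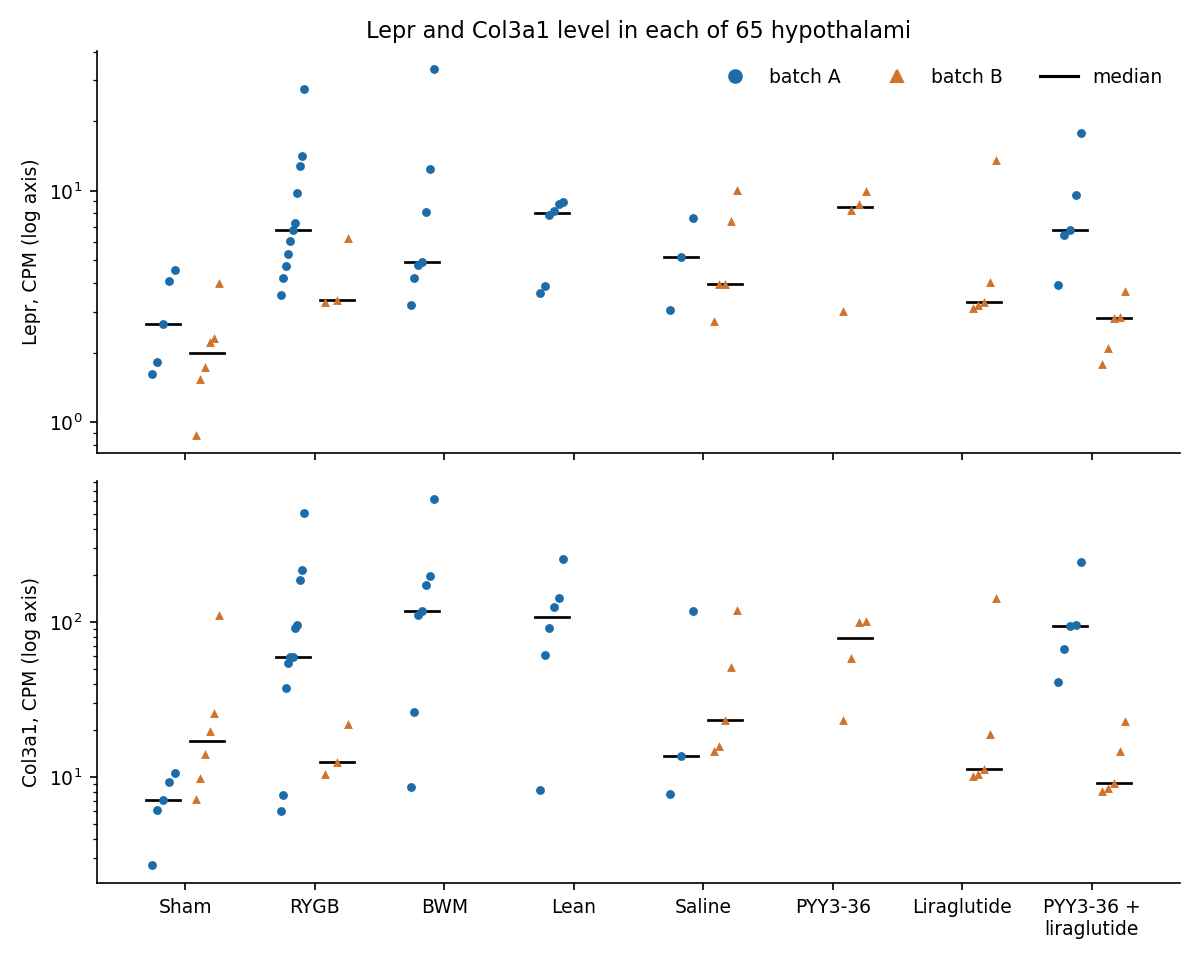
Level of Lepr (top) and of Col3a1 (bottom) in each of the 65 animals, in CPM on log axes, by group, with batch A as circles, batch B as triangles and a line at the median of each group within a batch. Lepr medians in the sham group were 2.66 CPM in batch A and 1.98 in batch B, and Col3a1 was lowest in the 5 sham animals of batch A (2.71 to 10.6 CPM).

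RYGB vs. sham compares the bypass, with the weight loss that goes with it, with the operation alone. Lepr was 2.62-fold higher after RYGB and Stat3 1.38-fold higher, so 2 of the 7 genes were called. In the same comparison 13% of all genes tested were called, 6.52% were called higher, and 2.38% passed when an absolute log2 fold change over 1 was also asked for, as Lepr did. Lepr in batch A ran from 3.55 CPM over a median of 6.77 to 27.5 in the 11 RYGB animals. The 5 sham animals of that batch had 1.62, 1.82, 2.66, 4.09 and 4.53 CPM. In batch B the 3 RYGB animals had 3.31, 3.37 and 6.26 CPM, and the 6 sham animals ran from 0.881 over a median of 1.98 to 3.99. All 14 RYGB animals were above the sham median of 2.23 CPM, but the groups overlapped in both batches, and 9 of 11 RYGB animals in batch A and 1 of 3 in batch B exceeded every sham animal of their batch. The log2 fold change was 1.39 ± 0.37 (adjusted p = 0.0114), with an approximate 95% interval of the fold from 1.58 to 4.35. Within batch A alone it was 1.69 ± 0.53 (adjusted p = 0.0706) and within batch B alone 1.04 ± 0.49 (adjusted p = 0.171), so neither batch passed on its own. The difference between these 2 effects was -0.63 ± 0.75 (adjusted p = 0.827).

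The other control group gave another picture. Against saline-treated animals, which received saline by injection and by implanted minipump and were not in the sham-operated group, Lepr in RYGB differed by 0.10 ± 0.41 (adjusted p = 1), with an interval of the fold from 0.62 to 1.87. The 2 batches pointed in opposite directions, with a RYGB difference from saline of 0.84 within batch A alone and -0.37 within batch B alone. Neither was called. For BWM vs. saline the Lepr difference was 0.28 ± 0.49, and 0.99 within batch A alone (adjusted p = 0.895). The saline animals of batch A had 3.05, 5.2 and 7.61 CPM of Lepr and those of batch B 2.75, 3.95, 3.97, 7.41 and 10.1. Sham was 1.29 ± 0.40 lower than saline on the log2 scale without passing the adjustment (adjusted p = 0.231), and 0 of 11 sham animals were above the saline median. In sham vs. saline 0 of 7 genes and 0.0137% of all genes were called by edgeR, 2 genes of the set had an unadjusted p under 0.05, and DESeq2 called 0. In RYGB vs. saline these were 0 of 7, 0.00457%, 0 and 0, and in BWM vs. saline 0 of 7, 0.0411%, 1 and 0. The comparisons with sham share the sham animals, and those with saline the saline animals.

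BWM vs. sham asks whether weight loss by food restriction shows the same picture. None of the 7 genes was called by edgeR (0.315% of all genes were called), while 1, Lepr, had an unadjusted p under 0.05 and was called by DESeq2 (adjusted p = 0.0340). The 7 BWM animals ran from 3.21 CPM of Lepr over a median of 4.92 to 33.6. All 7 were above the sham median and 5 of 7 exceeded the highest sham animal of batch A, the only batch with BWM animals. The edgeR estimate was 1.57 ± 0.44 (adjusted p = 0.0870), a larger fold than after RYGB with a wider interval, from 1.63 to 5.39. It fell to 0.87 without BWM replicate 7, the animal with 33.6 CPM, and it was called (1.72, adjusted p = 0.0303) without BWM replicate 1, the animal with the lowest Lepr of the group. Direct comparison of RYGB and BWM gave -0.18 ± 0.39 for Lepr (adjusted p = 0.880), with an interval of the fold from 0.52 to 1.5. In that comparison 0 of 7 genes and 0.302% of all genes were called, 1 gene of the set (Ptpn2) had an unadjusted p under 0.05, and DESeq2 called 0.

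Lean vs. sham gave a Lepr difference of 1.0 ± 0.46 (adjusted p = 0.371) and a Jak2 difference of 0.36 ± 0.14 (adjusted p = 0.307). The 6 lean animals ran from 3.61 CPM of Lepr over a median of 8.04 to 8.97, and all 6 were above the sham median. None of the 7 genes and 0.0% of all genes were called by edgeR, 2 genes of the set had an unadjusted p under 0.05, and DESeq2 called 0 of them. The median of Col3a1 was 108 CPM in lean, against 7.05 in the sham animals of the same batch, A. With the level of Col3a1 as a covariate in edgeR, the Lepr difference was 0.23 (adjusted p = 0.708).

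Hormone treatment was compared with saline, and none of the 7 genes was called in any of the 3 comparisons by edgeR or DESeq2, nor had any an unadjusted p under 0.05. Of all genes, 0.0% were called for PYY3-36, 0.0% for liraglutide and 0.00457% for the combination. The 4 PYY3-36-treated animals had 3.03, 8.26, 8.78 and 9.97 CPM of Lepr, and the fold vs. saline had an interval from 0.82 to 3.27. The 5 liraglutide-treated animals had 3.11, 3.22, 3.32, 4.05 and 13.6 CPM, with an interval from 0.62 to 2.30. The direction was not stable. The log2 fold change was 0.26 in the model of all animals, -0.39 without liraglutide replicate 1, and -0.02 within batch B alone with that animal kept. The combination gave 3.90, 6.43, 6.75, 9.62 and 17.8 CPM in batch A and 1.79, 2.10, 2.83, 2.85 and 3.70 CPM in batch B. In the same animals Col3a1 ran from 40.8 to 242 CPM in batch A and from 8.08 to 22.9 in batch B. The fold of Lepr vs. saline was 0.83 with an interval from 0.47 to 1.45. The difference of that effect between batches was -1.83 ± 0.81 (adjusted p = 1). The interval for PYY3-36 includes the 2.62-fold of RYGB vs. sham, but these folds have different controls. None of the 3 hormone folds was tested against that of RYGB, so no order of size is drawn.

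**Figure D2:**
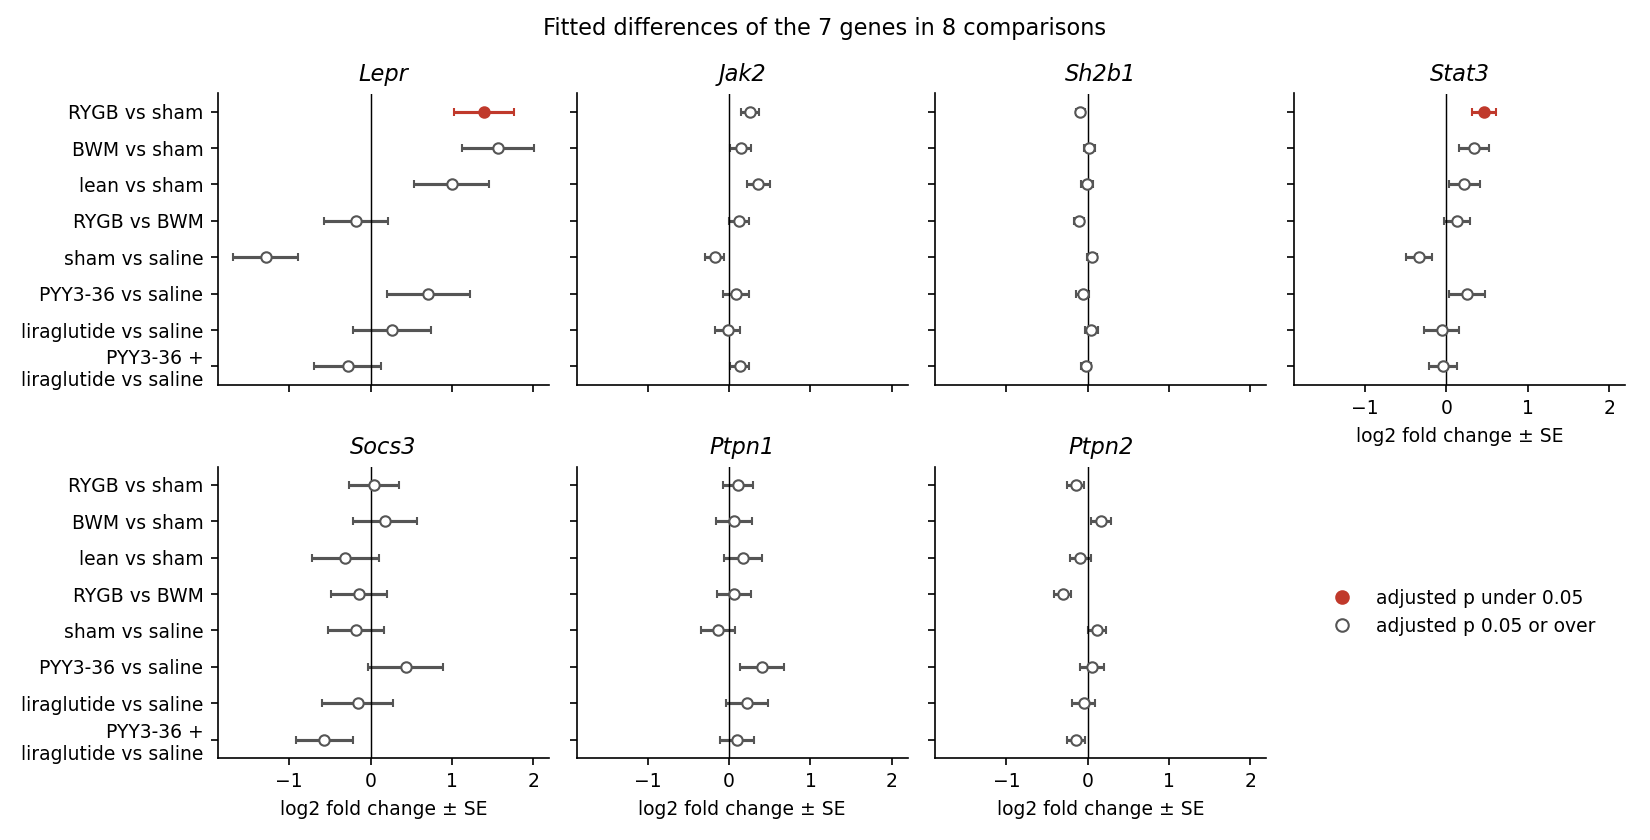
Log2 fold change ± SE of each of the 7 genes (1 panel per gene) in 8 comparisons, from edgeR with all 65 animals in 1 model; filled red points have an adjusted p under 0.05. Only Lepr (1.39) and Stat3 (0.46) in RYGB vs. sham are filled, and Sh2b1 and Ptpn2 stay within 0.31 of 0 in each comparison shown.

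The level of Lepr followed that of Col3a1 between animals. Col3a1 is made by fibroblasts of the meninges and little by brain tissue proper. After subtraction of the group means, the log2 levels of both genes correlated in batch A with Pearson's r = 0.76 (n = 37, permutation p = 2e-05) and Spearman's rho = 0.68 (permutation p = 1e-05, the smallest that 100000 resamples can give). In batch B r was 0.67 (n = 28, permutation p = 0.00422) and rho 0.55 (permutation p = 0.00992). Of 14 relations tested (7 genes in 2 batches), the Benjamini-Hochberg adjusted permutation p of Lepr for r came to 0.00028 (batch A) and 0.0197 (batch B), and that for rho to 0.00014 and 0.0278. Without the 2 animals farthest from the median of Col3a1, r came to 0.74 (batch A) and 0.46 (batch B) (permutation p = 0.0498), so in batch B a part of the relation rests on those animals. In batch A these were low animals, sham replicate 2 and RYGB replicate 6 (2.71 and 6.06 CPM of Col3a1). In batch B they were high ones, liraglutide replicate 1 and saline replicate 7 (142 and 119 CPM). The removals thus differ in kind, and the highest animals of batch A stayed in. With the mean of the other meningeal markers in place of Col3a1, r was 0.78 and 0.73.

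Several animals with much of one transcript also had much of the other. BWM replicate 7 had 33.6 CPM of Lepr and 620 of Col3a1, RYGB replicate 3 had 27.5 and 506, and PYY3-36 + liraglutide replicate 1 had 17.8 and 242. Liraglutide replicate 1, the highest of its group in both, had 13.6 and 142. The lowest Col3a1 of all, 2.71 CPM, stood beside 1.62 CPM of Lepr in sham replicate 2. Exceptions exist in both directions. Saline replicate 4 had 10.1 CPM of Lepr at 15.8 of Col3a1. On the other side, lean replicate 1 had 8.76 at 255 and BWM replicate 2 had 4.79 at 174. Lean replicate 6 had 3.88 at 125, BWM replicate 6 had 4.19 at 117 and sham replicate 11 had 3.99 at 111. On the fitted slope, a doubling of Col3a1 went with 0.35 log2 units of Lepr in batch A and 0.33 in batch B.

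**Figure D3:**
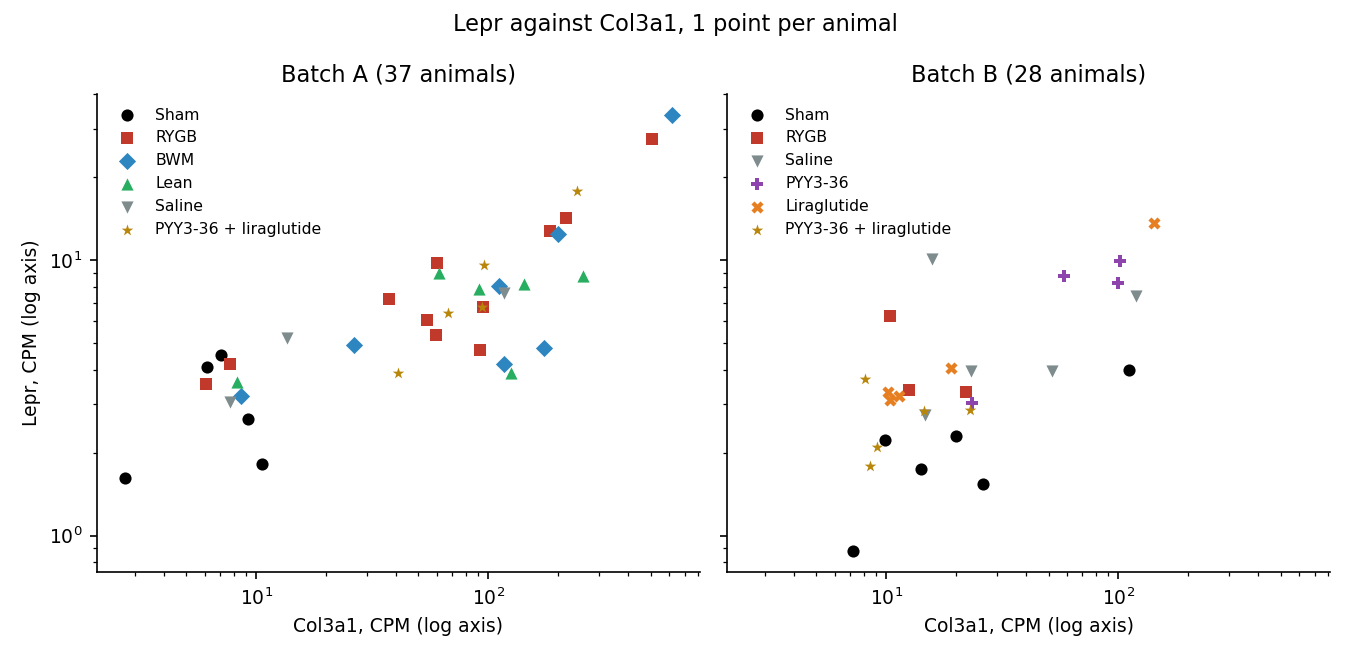
Lepr against Col3a1 in CPM on log axes, 1 point per animal, with batch A (37 animals) on the left and batch B (28 animals) on the right and 1 symbol per group. The points rise together from 2.71 CPM of Col3a1 and 1.62 of Lepr to 620 and 33.6 in batch A, and the sham animals form the lower left of that panel.

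Meningeal transcripts were unevenly spread over the compared groups. Their summed level over 12 markers ran from 50.2 to 88.2 CPM in the sham animals of batch A, against 68.0 to 2340 in RYGB and 60.6 to 2453 in BWM of the same batch. In batch B the order was different, with 57.1 to 568 in sham and 105 to 149 in RYGB. Of the 12 markers, all were on the higher side in RYGB and in BWM vs. sham with a median log2 fold change of 1.35 and 1.88, and 0 passed the test in either comparison. No defining marker (Col3a1, Col1a1, Col1a2) was at 0 in any animal. Choroid plexus markers moved less closely with Lepr: across the 65 animals, after subtraction of group and batch means, their median r with Lepr was -0.01 over 11 genes, against 0.74 over the 12 meningeal markers, 0.48 over 9 endothelial markers and -0.03 over all genes. These r are descriptions, since the genes share libraries and scaling.

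With the level of Col3a1 as a covariate, the Lepr difference between RYGB and sham was 0.68 ± 0.25 (adjusted p = 0.0635) and that between BWM and sham 0.39 (adjusted p = 0.822), and 0 of the 7 genes were called. The mean of the meningeal markers gave 0.65 ± 0.24 (adjusted p = 0.0614), and that of the choroid plexus markers 1.25 ± 0.38 (adjusted p = 0.0268). Within batches the covariate moved the value in opposite directions. In batch A the RYGB difference was 0.10 ± 0.35 with it (adjusted p = 0.905), and the BWM difference -0.13 (adjusted p = 0.945). In batch B, where Col3a1 was no higher in RYGB (10.4, 12.5 and 22.0 CPM) than in sham (7.20 to 111), it was 1.36 ± 0.38 (adjusted p = 0.0214). The difference between the batches with the covariate was 1.20 (adjusted p = 0.5). Leaving out the 18 libraries over 100 CPM of Col3a1 kept 11 RYGB and 10 sham animals. Lepr was called in that fit of RYGB vs. sham, at 1.12 ± 0.26 (adjusted p = 0.00809). The limit did not even out Col3a1. In batch A, RYGB animals with up to 94.8 CPM stayed in beside sham animals with 10.6 CPM or less. Only 2 BWM animals remained under that limit, too few for the comparison. In batch A the 5 sham animals all had 10.6 CPM of Col3a1 or less while 9 of 11 RYGB animals had more than each of them, and 2 RYGB animals lay within the sham range. The part of meningeal tissue in the Lepr difference was not tested beyond these fits.

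**Figure D4:**
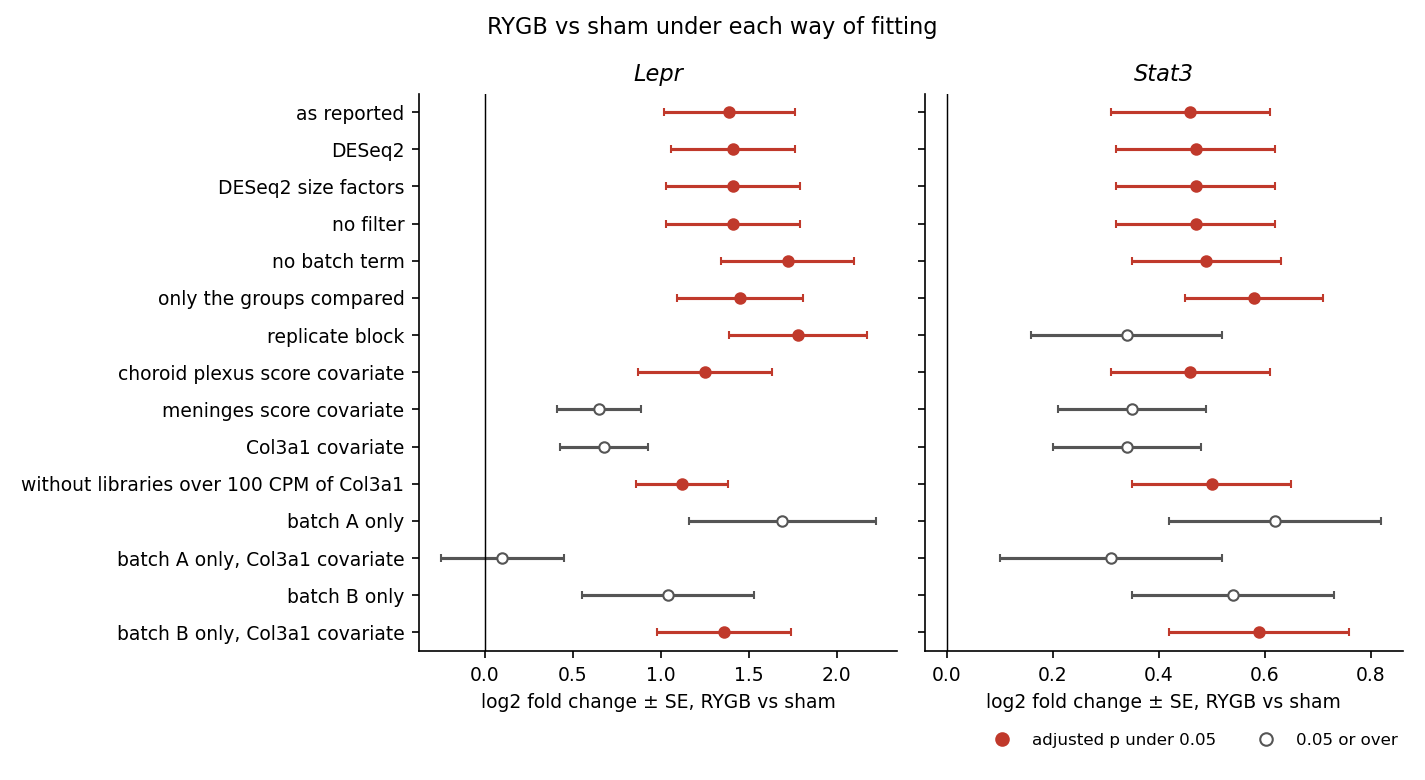
Log2 fold change ± SE of Lepr (left) and Stat3 (right) in RYGB vs. sham under 15 ways of fitting, filled red where the adjusted p was under 0.05. Lepr ranged from 0.10 (batch A with the Col3a1 covariate) to 1.78 (replicate block) and Stat3 from 0.31 to 0.62.

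Jak2 and its adapter Sh2b1 stand between receptor and transcription factor. In RYGB vs. sham Jak2 differed by 0.26 ± 0.11 (adjusted p = 0.0919), with means of 34.2 ± 5.35 CPM (n = 14) and 27.4 ± 5.81 (n = 11), and 13 of 14 RYGB animals were above the sham median. It was called when any 1 of RYGB replicate 11, sham replicate 6 or sham replicate 10 was left out, and without the batch term (0.32). In BWM vs. sham it differed by 0.14 ± 0.13 (adjusted p = 0.717). Sh2b1 was the steadiest gene of the set, with 76.1 ± 9.31 CPM in RYGB, 84.4 ± 9.26 in BWM and 77.6 ± 9.53 in sham, and its difference was -0.09 ± 0.06 in RYGB vs. sham (adjusted p = 0.265) and 0.02 ± 0.07 in BWM vs. sham (adjusted p = 0.935). Neither gene followed Col3a1, with r between -0.27 and 0.01 over both batches.

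Stat3 was the other gene called in RYGB vs. sham. In batch A the 11 RYGB animals ran from 50.9 CPM over a median of 66.2 to 109, and the 5 sham animals had 41.1, 44.4, 45.6, 49.1 and 55.5. In batch B the 3 RYGB animals had 74.6, 85.1 and 85.4 CPM, and the 6 sham animals ran from 40.8 over a median of 55.9 to 79.5. All 14 RYGB animals were above the sham median of 49.1 CPM, and the groups overlapped in both batches. Stat3 differed by 0.46 ± 0.15 on the log2 scale (adjusted p = 0.0313). In single-batch fits the value was 0.62 in A (adjusted p = 0.0796) and 0.54 in B (adjusted p = 0.0643), a narrower spread than that of Lepr. With the Col3a1 covariate it was 0.34 (adjusted p = 0.104), and without the libraries over 100 CPM of Col3a1 it was 0.50 (adjusted p = 0.0372). The call was not stable: it was lost in 7 of the 25 fits that left out 1 animal (RYGB replicates 9, 12, 13 and 14 and sham replicates 2, 4 and 5), with values from 0.42 to 0.46 in those 7. In BWM, with 68.6 ± 22.6 CPM (n = 7), the difference from sham was 0.34 ± 0.18 (adjusted p = 0.449).

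Socs3 is a direct target of Stat3, and it was not called with Stat3 after RYGB. Its means were 3.75 ± 2.01 CPM in RYGB (n = 14) and 3.09 ± 0.991 in sham (n = 11), the difference was 0.04 ± 0.31 (adjusted p = 0.949), and 7 of 14 RYGB animals were above the sham median. In BWM it was 0.18 ± 0.39 (adjusted p = 0.886). Between animals the 3 transcripts went together: after subtraction of group and batch means over 65 libraries, r was 0.76 for Stat3 and Socs3, 0.59 for Lepr and Socs3 and 0.58 for Lepr and Stat3, given as descriptions. Socs3 also followed Col3a1, with r = 0.66 in batch A (n = 37, adjusted permutation p = 0.00168) and 0.65 in batch B (n = 28, adjusted permutation p = 0.0198). Without the 2 animals farthest from the median of Col3a1, low ones in batch A and high ones in batch B, these were 0.65 and 0.40. For Stat3 r was 0.40 and 0.46 with adjusted permutation p = 0.101 and 0.127. The 3 saline animals of batch A had 1.96, 6.03 and 11.2 CPM of Socs3 and, in the same order, 44.2, 103 and 104 of Stat3, so 2 of them were high in both.

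**Figure D5:**
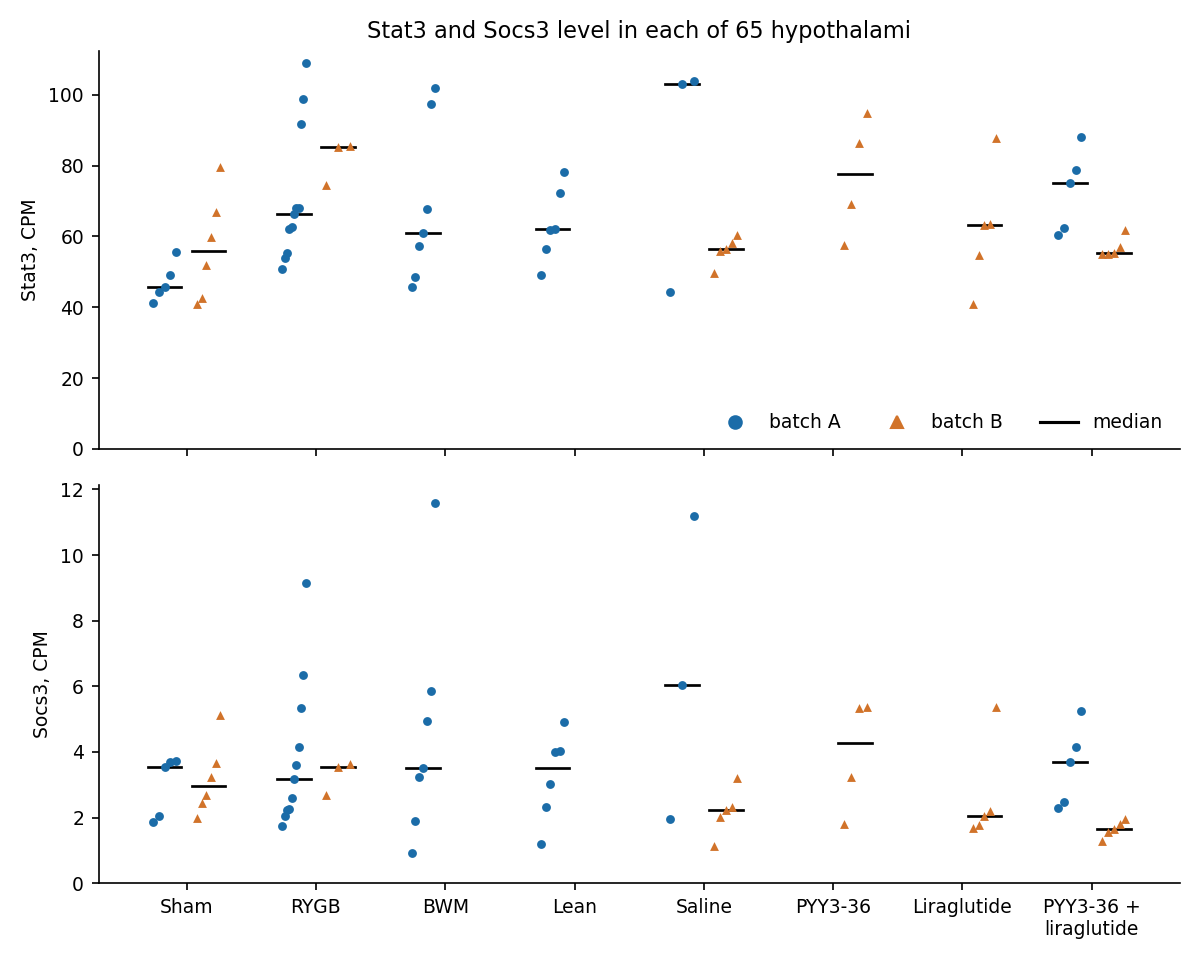
Level of Stat3 (top) and Socs3 (bottom) in each of the 65 animals, in CPM, by group, with batch A as circles, batch B as triangles and a line at the median of each group within a batch. Stat3 in RYGB ran from 50.9 to 109 CPM against 40.8 to 79.5 in sham, while Socs3 in RYGB (1.75 to 9.15 CPM) spanned the whole sham range (1.85 to 5.13).

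The phosphatases Ptpn1 and Ptpn2 act on Jak2 and on STAT proteins. Ptpn1 had 14.1 ± 3.24 CPM in RYGB, 14.8 ± 6.07 in BWM and 12 ± 7.28 in sham, and its difference was 0.11 ± 0.18 in RYGB vs. sham (adjusted p = 0.711) and 0.06 ± 0.22 in BWM vs. sham (adjusted p = 0.943). The sham group held the highest value of all animals, 30.3 CPM in sham replicate 2, the animal with the lowest Col3a1. Ptpn1 went with Jak2 (r = 0.68) and Sh2b1 (r = 0.63) between animals and hardly with Lepr (r = 0.07). Against Col3a1 it ran in the opposite direction to Lepr, with rho = -0.42 (n = 37, adjusted permutation p = 0.0278) and r = -0.35 (adjusted permutation p = 0.101) in batch A, and rho = -0.27 (n = 28, adjusted permutation p = 0.374) and r = -0.22 (adjusted permutation p = 0.404) in batch B. Ptpn2, which overlaps Psmg2 on the opposite strand, had 13.6 ± 1.3 CPM in RYGB, 17.0 ± 6.74 in BWM and 15.0 ± 2.67 in sham. It differed by -0.15 ± 0.10 in RYGB vs. sham (adjusted p = 0.305) and by 0.16 ± 0.12 in BWM vs. sham (adjusted p = 0.639). The BWM mean rested on the pituitary-rich replicate 5, which had 31.5 CPM, against 11.1 to 17.2 in the other 6 animals. Without it the difference was -0.08.

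The experimental period divided more genes than any treatment. In batch B 4 of the 7 genes were lower than in batch A, while 40.7% of all genes differed between the batches (4.97% with an absolute log2 fold change over 1), so 4 of 7 is not far from the background. Differences were -0.87 ± 0.29 for Lepr (adjusted p = 0.0136), -0.64 ± 0.24 for Socs3 (adjusted p = 0.0281), -0.60 ± 0.14 for Ptpn1 (adjusted p = 0.000577) and -0.20 ± 0.04 for Sh2b1 (adjusted p = 0.000175). The other 3 genes ranged from -0.17 to -0.05. With the Col3a1 covariate 2 of the 4 calls held, Sh2b1 and Ptpn1, and Lepr was at -0.45 (adjusted p = 0.0507) and Socs3 at -0.36 (adjusted p = 0.140). Leprot went the other way, with 0.34 ± 0.09 (adjusted p = 0.00221). The cause of the batch difference was not tested.

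Around the 7 genes, 50 further genes of leptin signalling and related families were examined, of which 49 passed the filter on low counts. The list includes other JAK and STAT genes and receptors of related cytokines, so it is wider than leptin signalling. Lep, the ligand, did not, with 0.0401 CPM or less in every animal. In RYGB vs. sham 12 of the 49 were called and all 12 were higher, beside 13% of all genes called and 6.52% called higher. The list was not tested as a set. It had a median log2 fold change of 0.10, against -0.02 over all genes. Of the STATs beside Stat3, 3 of 6 were called, among them Stat5b (the transcription factor best known from growth hormone signalling) at 0.97 ± 0.19 (adjusted p = 0.00192), with 29.5 ± 8.99 CPM in RYGB and 13.8 ± 5.52 in sham. Of the kinases and adapters 4 of 19 were called higher, among them Irs1 (an adapter shared with insulin signalling) at 1.11 ± 0.23 (adjusted p = 0.00203). Of the negative regulators 2 of 13 were called. Counts this small in lists of this size are read as descriptions, and nothing particular to a list is drawn from them. The negative regulators called included Pias1 (an inhibitor of activated STATs) at 1.03 ± 0.18 (adjusted p = 0.000654). Of the related cytokine receptors 2 of 5 were called, among them Lifr (a receptor subunit for leukaemia inhibitory factor) at 1.16 ± 0.29 (adjusted p = 0.00702).

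The count of 12 moved with the fit, as did that of all genes, which was 2852 in the model above. With the Col3a1 covariate 9 of the list and 2402 of all genes were called, and without the libraries over 100 CPM of Col3a1 8 and 1840. In batch A alone these were 0 and 525, and in batch B alone 7 and 2431. In these 4 fits no gene of the list was called lower. With the replicate block 7 were higher and 1 lower (1606 of all genes called), and without the batch term 13 were higher and 1 lower (5603 called). In BWM vs. sham 0 of 49 were called by edgeR, 13 had an unadjusted p under 0.05, and DESeq2 called 1.

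Leprot, which shares the locus of Lepr and is known to hold the receptor inside the cell, was not called in either comparison. It had 38.2 ± 9.24 CPM in RYGB, 43.6 ± 10 in BWM and 46.1 ± 13.5 in sham, with differences of -0.13 ± 0.12 (adjusted p = 0.489) and 0.13 ± 0.14 (adjusted p = 0.767) from sham. Its relative Leprotl1 was higher after RYGB, by 0.34 ± 0.11 (adjusted p = 0.0379). The feeding peptides of the arcuate nucleus, on which Lepr acts, were not called in RYGB vs. sham. Agrp, which drives food intake, differed by 1.07 ± 0.71 (adjusted p = 0.310), and Npy, released by the same neurons, by -0.55 ± 0.36 (adjusted p = 0.312). Pomc, the precursor of the satiety peptide alpha-MSH, differed by 0.08 ± 0.93 (adjusted p = 0.965) and Cartpt, a further satiety peptide, by 0.01 ± 0.49 (adjusted p = 0.991). Pomc varied widely within both groups, with 146 ± 259 CPM in RYGB and 148 ± 319 in sham, and the cause of this spread was not tested.

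The 10 genes whose pattern over the 65 libraries was most like that of Lepr, by r of the log2 levels after subtraction of group and batch means, were led by Ptgfr (a prostaglandin receptor) and Cdh5 (the cadherin of endothelial junctions), both with r = 0.88. Pard6g had 0.86, Ptrf (a coat protein of caveolae) 0.85, Gpr81 (the lactate receptor) and Cybb (a subunit of NADPH oxidase) 0.84, LOC102551932, Aox3 and RGD1566368 0.83 and Bmp6 (a growth factor) 0.82. Each was higher in batch A (0.87 to 0.95) than in batch B (0.58 to 0.77). At the other end stood Yrdc with -0.73, Uchl3 with -0.69, and Mrps9, Mrps22 and Hist3h2ba with -0.67. Among the 7 genes, Socs3 ranked 739 and Stat3 799 of 21881 by likeness to Lepr, Jak2 7469 and Ptpn1 7765, and Ptpn2 and Sh2b1 were on the negative side (-0.06 and -0.12). Col3a1 ranked 165.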

How the data were processed

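Whole-hypothalamus RNA of 65 rats was measured, 1 library per animal, with group and batch taken from the labels. The authors trimmed reads with cutadapt, mapped them with STAR 2.7.2b to Rnor_6.0 and counted them on RefSeq exons with featureCounts, giving reads with several places or genes as fractions. The deposited values are estimated counts without any normalization, and 30.3% of the nonzero ones were not whole (tolerance 1e-06). They were rounded. Replicates are separate animals.

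Differences came from edgeR 4.0.16 in R 4.3.3 (low counts removed by filterByExpr at its limits of 10 per library and 15 in total, TMM, robust quasi-likelihood, terms for group and batch, all libraries in 1 model). SE is the absolute log2 fold change over the square root of F, and approximate 95% intervals rest on it. Relations with Col3a1 used log2(CPM + 1), centred on group means, with two-sided permutation within groups in Python 3.11.15 with numpy 2.4.6 (100000 resamples). Covariates were the log2 level of Col3a1 or the mean of a marker list. The scripts were tested on simulated data. Alternatives were DESeq2 1.42.0, its size factors, no filter, no batch term, single batches, the compared groups alone, the study's rule of an absolute log2 fold change over 1, covariates, a replicate block and leaving out each animal.

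Replicate numbers were not treated as pairs in the main model. No rate for differently numbered pairs is given, so the following count does not settle whether replicate numbers mark pairs. Of 71 same-numbered pairs, 29 had a correlation of their deviations over 0.1. In liraglutide vs. saline all 5 pairs did (0.32 to 0.61), although 3 of those pairs join animals of different batches, and the block changed no call there.

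The 7 genes, the lists and the tests were chosen with earlier results of these data known. Named genes were the 7 members, Col3a1, the defining markers of each list, Lep, Leprot, Leprotl1, 4 feeding peptides, up to 4 further pathway genes of smallest adjusted p per comparison, and the 10 genes most and 5 least like Lepr. Of the marker lists, Slco1a4 matched no gene and Ogn had several rows, so both were left out. RefSeq windows around annotated gene starts (GRCr8) were matched by symbol for all 7 genes (that of Lepr may be intronic), and protein sequences were not used here.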

Additional observations from a re-analysis of the deposited data

Results flagged for a closer look

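In 63 groups of 4 to 10 animals within a batch (7 genes), 7 held 1 animal farther from the rest than Dixon's 95% limit. A rate of 1 in 20 would give about 3.15, but it holds for independent, normally distributed values. The rule was applied to CPM without logs, and 2 of the 7 came from 1 library, so no excess is read from the count. BWM replicate 7 had 33.6 CPM of Lepr against 3.21 to 12.4 in the other 6 BWM animals, beside the highest Col3a1 of all libraries. Liraglutide replicate 1 had 13.6 CPM of Lepr against 3.11 to 4.05, and 5.38 CPM of Socs3 against 1.68 to 2.21 in the other 4 animals, beside 142 CPM of Col3a1 against 10.2 to 19.0. BWM replicate 1 had 53.0 CPM of Jak2 against 25.4 to 35.1. PYY3-36 + liraglutide replicate 10 had 19.4 CPM of Jak2, below the 35.5 to 40.4 of the other animals of that group in batch B. Saline replicate 4 had 19.7 CPM of Ptpn1 against 6.70 to 9.74 in batch B. BWM replicate 5, the pituitary-rich library, had 31.5 CPM of Ptpn2 against 11.1 to 17.2.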

How the results depend on the processing

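Of the 7 genes, 2 were called in RYGB vs. sham. The count was 1 with the study's rule of an absolute log2 fold change over 1 and 1 with the replicate block. It was 0 in batch A alone, in batch B alone, with the Col3a1 covariate, with the meninges score and in batch A with the Col3a1 covariate. Leaving out 1 animal gave 1 to 3 calls there and 0 to 1 in BWM vs. sham. BWM vs. sham had 1 call without the batch term and 1 by DESeq2, and lean vs. sham had 2 without the batch term. Of the 4 calls between batches, 0 were left with the fold rule, 0 with the replicate block and 2 with the Col3a1 covariate. Single-batch fits hold fewer animals, and the cause of the other changes was not tested.

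Several uncalled values changed sign. Lepr in liraglutide vs. saline was -0.01 without the batch term and with the meninges score, -0.02 in batch B, -0.03 with the compared groups alone, -0.14 with the replicate block and -0.32 without libraries over 100 CPM of Col3a1. Lepr in PYY3-36 + liraglutide vs. saline was 0.07 without the batch term, 0.77 in batch A and 0.03 with the block, and in PYY3-36 vs. saline -0.04 with the meninges score. Lepr in RYGB vs. BWM was 0.17 with the block, 0.29 with the Col3a1 covariate and 0.27 with the meninges score. In RYGB vs. saline it was -0.37 in batch B, -0.09 with the Col3a1 covariate, -0.16 with the meninges score and -0.14 without the libraries over 100 CPM. In BWM vs. saline it was -0.38 with the Col3a1 covariate and -0.42 with the meninges score. In batch A with the Col3a1 covariate it was -0.13 in BWM vs. sham and -0.26 in lean vs. sham. The batch difference of the RYGB effect was 1.20 with the covariate. Socs3 in RYGB vs. sham was -0.19 with the block, -0.36 with the Col3a1 covariate, -0.34 with the meninges score, -0.05 with the choroid plexus score and -0.67 in batch A with the Col3a1 covariate. In BWM vs. sham these were -0.04, -0.55, -0.48 and, in batch A with the covariate, -0.70. Ptpn1 was -0.16 in batch A in both RYGB and BWM vs. sham, and -0.16 with the compared groups alone in BWM vs. sham.

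Leaving out 1 animal gave ranges that crossed 0 for Lepr in RYGB vs. BWM (-0.45 to 0.52), RYGB vs. saline (-0.10 to 0.34), BWM vs. saline (-0.42 to 0.50) and liraglutide vs. saline (-0.39 to 0.55), and for Socs3 in RYGB vs. sham (-0.09 to 0.17). In BWM vs. sham they did for Jak2 (-0.02 to 0.19), Ptpn1 (-0.15 to 0.26), Ptpn2 (-0.08 to 0.24), Sh2b1 (-0.03 to 0.05) and Socs3 (-0.25 to 0.36). Lepr in RYGB vs. sham was called in all 25 such fits, at 1.17 to 1.53. BWM and PYY3-36 had too few animals without the libraries over 100 CPM, and the block could not be fitted with the batch differences. The limit of 100 CPM, the within-batch fits with the covariate and the covariate on the batch difference were chosen after seeing the data. The low counts of Lepr and Socs3 limit their precision.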
